A study of Homo sapiens with 8 samples.

Results

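The HOX genes studied here were 38 protein-coding genes of the HOXA, HOXB, HOXC and HOXD clusters, taken by name and not by any measured value. They were 38 of 19970 protein-coding genes on chromosomes 1 to 22 and X whose promoters were measured in the same way. The HOXA and HOXB clusters gave 10 genes each, and the HOXC and HOXD clusters 9 each. A further HOX gene was not analysed here.

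HOX genes encode homeodomain transcription factors that set position along the body axis, and they are numbered by paralogue group, from 1 to 13, by their order in the cluster. Low-numbered genes act towards the head and high-numbered genes towards the tail and the limb tips. Trithorax complexes write trimethylation of lysine 4 of histone H3 (H3K4me3) at active HOX promoters, while Polycomb complexes hold inactive clusters silent through a different mark that was not measured here. H3K9me3, trimethylation of lysine 9, marks heterochromatin and is the mark that KRAB brings to its targets.

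The cells were SUM159, an established mesenchymal line from a triple-negative breast tumour, all of them transduced with a lentiviral pLV vector that expresses dCas9-KRAB, a nuclease-dead Cas9 fused to the KRAB repressor domain. All gRNA cells also carried 4 guides to the ZEB1 promoter, and No gRNA cells carried the vector without a targeting guide. Native ChIP-seq gave 2 biological replicates for each group and each mark, 8 libraries in all, each with its own deposited list of broad peaks. The file names of 2 of the 4 H3K4me3 libraries, labelled All gRNA replicate 2 and No gRNA replicate 1, give the other condition, so every H3K4me3 library is called by its label.

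A peak is a stretch where the reads of a library exceed its own background, and q is the p-value of the peak adjusted over that library. The lists held between 321975 and 506683 peaks, most of them weak. On chromosomes 1 to 22 and X the H3K4me3 lists held 8602 and 3067 peaks with q ≤ 0.05 for All gRNA, and 3989 and 13877 for No gRNA, while the H3K9me3 lists held between 10551 and 36131. The read depth is unknown. H3K9me3 covered 75.8% and 80.9% of the ZEB1 start site ± 10 kb in the All gRNA libraries, against 4.57% and 1.33% in the No gRNA libraries. H3K4me3 at the ZEB1 start site ± 1 kb was 32.3% and 100% with All gRNA and 0% and 100% with No gRNA, so this gene did not separate the H3K4me3 labels. The value of 100% in the library labelled All gRNA 2 and that of 0% in the library labelled No gRNA 1, the ones whose file names give the other condition, go against their labels and follow the file names. Every H3K4me3 difference between the labelled groups given below therefore rests on labels in doubt. H3K4me3 marked the promoters of all 5 mesenchymal genes on a list of markers, 4 of 6 luminal genes and 0 of 4 genes of other tissues in every library. Over all promoters 57.8% were marked in every library.

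Promoter sequences were printed for a gene with an entry inside the longest run of H3K4me3 in the clusters, for 4 genes whose H3K4me3 share separated the labelled groups, and for the HOX gene without a peak at its start. RefSeq (GRCh38.p14) gave an entry for 20 of the 38 genes. Each line holds the 250 bases before the RefSeq start site, written 5′ to 3′ on the strand of the gene, with every CG in capitals.
HOXC4, chr12:54016638-54016887 (+ strand): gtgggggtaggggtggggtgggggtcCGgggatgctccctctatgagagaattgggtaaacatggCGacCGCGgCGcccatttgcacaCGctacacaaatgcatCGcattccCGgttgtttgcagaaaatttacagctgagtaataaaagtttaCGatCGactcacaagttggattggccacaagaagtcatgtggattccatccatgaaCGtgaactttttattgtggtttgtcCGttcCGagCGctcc
HOXA2, chr7:27102684-27102933 (- strand): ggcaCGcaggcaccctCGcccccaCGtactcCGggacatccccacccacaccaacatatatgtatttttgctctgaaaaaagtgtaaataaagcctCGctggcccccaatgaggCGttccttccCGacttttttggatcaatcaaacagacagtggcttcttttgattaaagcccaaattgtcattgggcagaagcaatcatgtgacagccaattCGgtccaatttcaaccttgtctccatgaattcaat
HOXA9, chr7:27165538-27165787 (- strand): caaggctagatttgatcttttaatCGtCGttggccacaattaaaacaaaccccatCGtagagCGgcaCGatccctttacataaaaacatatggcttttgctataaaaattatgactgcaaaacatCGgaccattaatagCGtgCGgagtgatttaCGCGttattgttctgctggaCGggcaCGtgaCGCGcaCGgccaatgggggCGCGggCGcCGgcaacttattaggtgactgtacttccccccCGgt
HOXD4, chr2:176151300-176151549 (+ strand): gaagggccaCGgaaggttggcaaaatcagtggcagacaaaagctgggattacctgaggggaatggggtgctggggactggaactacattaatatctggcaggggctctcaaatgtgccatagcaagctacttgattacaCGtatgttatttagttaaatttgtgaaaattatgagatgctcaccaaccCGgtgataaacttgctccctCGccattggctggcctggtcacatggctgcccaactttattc
HOXD13, chr2:176092471-176092720 (+ strand): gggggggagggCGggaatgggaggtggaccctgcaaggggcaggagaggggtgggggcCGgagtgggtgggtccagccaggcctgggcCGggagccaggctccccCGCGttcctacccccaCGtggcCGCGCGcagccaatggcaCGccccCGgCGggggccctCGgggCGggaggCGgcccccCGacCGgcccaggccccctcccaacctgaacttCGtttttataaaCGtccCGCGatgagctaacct
HOXD3, chr2:176157057-176157306 (+ strand): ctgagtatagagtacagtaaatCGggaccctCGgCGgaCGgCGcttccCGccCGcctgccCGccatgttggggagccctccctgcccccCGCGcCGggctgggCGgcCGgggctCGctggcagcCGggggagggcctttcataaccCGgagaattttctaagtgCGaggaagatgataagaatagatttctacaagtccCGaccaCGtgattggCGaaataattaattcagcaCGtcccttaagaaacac

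The HOXC4 stretch holds 14 CG, the HOXA2 stretch 8, the HOXA9 stretch 20, the HOXD4 stretch 4 and the HOXD13 and HOXD3 stretches 21 each, against a median of 11 over 27305 RefSeq promoters. H3K4me3 peaks covered all 250 bases of the HOXC4 stretch in each of the 4 libraries, and none of the 250 bases of the HOXD3 stretch in any. The HOXC4 entry lies 36947 bases upstream of the start site used below for HOXC4, within the run of H3K4me3 over HOXC10, HOXC9 and HOXC8. The motif TGATTNAT, a site of HOX and PBX proteins, was searched on both strands and was found in 2 of the 20 HOX entries, HOXA2 and HOXD11, and in 2.59% of all entries.

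The clusters also hold microRNAs, some of which target HOX messages, and their mature forms are shown with the seed, bases 2 to 8, in capitals. They are printed because MIR196A2 lies inside the longest run of H3K4me3 in the clusters.
hsa-miR-196a-5p (MIR196A2 in HOXC, MIR196A1 in HOXB): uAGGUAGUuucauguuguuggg
hsa-miR-196b-5p (MIR196B in HOXA): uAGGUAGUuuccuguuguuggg
hsa-miR-10a-5p (MIR10A in HOXB): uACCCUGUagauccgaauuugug
hsa-miR-615-3p (MIR615 in HOXC): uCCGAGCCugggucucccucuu

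MIR196A1, MIR196A2 and MIR196B share the seed AGGUAGU and lie in 3 different clusters. H3K4me3 at the ± 1 kb window of MIR196A2 was 100% in every library, also with peaks of q ≤ 0.05 alone. At MIR196B it was 100% in every library with all peaks, and with q ≤ 0.05 in the libraries All gRNA 1 and No gRNA 2 only. At MIR196A1 it was 50.7% and 0% with All gRNA and 22.3% and 59.9% with No gRNA. With all peaks MIR196A2 and MIR196B were therefore alike, and MIR196A1 was lower in each library. MIR196A2 and MIR196B differed only at q ≤ 0.05, in the libraries All gRNA 2 and No gRNA 1.

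H3K4me3 was measured as the share of the start site ± 1 kb that lay under a peak, with all deposited peaks, and a promoter was called marked when at least 50% of the window was covered. Of the 38 HOX promoters, 18 were marked in all 4 libraries. This was 47.4% of the HOX genes, against 57.8% of all promoters. They were HOXA2, HOXA3, HOXA4, HOXA5, HOXA6 and HOXA10, HOXB5, HOXB9 and HOXB13, 7 of the 9 HOXC genes (HOXC4, HOXC5, HOXC8, HOXC9, HOXC10, HOXC11 and HOXC13), and HOXD8 and HOXD10. The whole window was covered in every library for 9 of them, which is 23.7% of the HOX genes against 34.5% of all promoters. Of these 9, 6 were HOXC genes and the others were HOXA4, HOXA5 and HOXB9.

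A single gene, HOXD3, had no H3K4me3 peak in the window in any library, which is 2.63% of the HOX genes against 3.3% of all promoters. Its start site is that of the MANE Select transcript, 20695 bases from the annotated 5′ end of the gene. At that 5′ end the share was 14.8% and 58.3% with All gRNA and 79.4% and 38% with No gRNA, so the absence holds for the former start site alone.

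With peaks of q ≤ 0.05, the HOXC cluster differed from the other clusters. HOXC8, HOXC9 and HOXC10, which pattern the thoracic and lumbar trunk, were marked in all 4 libraries, and no gene of another cluster was. These 3 genes are 7.89% of the HOX genes, against 3.15% of all promoters. Their start sites lay under the same peak in each library, so the 3 genes are not independent of each other. All 3 windows were covered to 100% in each library. The share marked in at least 1 library at q ≤ 0.05 was 55.3% of the HOX genes (21 genes), against 55.9% of all promoters. The libraries labelled All gRNA 2 and No gRNA 1, whose labels are in doubt, had the fewest peaks with q ≤ 0.05, although the most peaks in all. Without them 9 HOX promoters were marked at q ≤ 0.05 in both remaining libraries, 23.7% against 32.7% of all promoters. Those 9 were HOXA2, HOXA10, HOXB13, HOXC4, HOXC8, HOXC9, HOXC10, HOXC11 and HOXC13.

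The start sites of HOXC8, HOXC9 and HOXC10 lay under the same single peak in each library. It was 48.8 kb wide in All gRNA 1, 54.2 kb in All gRNA 2, 49.0 kb in No gRNA 1 and 77.2 kb in No gRNA 2. By width it ranked 29 of 390316 peaks, 35 of 499458, 182 of 470669 and 24 of 443150 in these libraries. Its fold enrichment was modest, at 3.17, 2.78, 2.75 and 3.73, and its q was 0.00559, 0.0473, 0.0372 and 0.000315. The All gRNA 2 peak therefore passed q ≤ 0.05 narrowly, and no HOX promoter was marked in all 4 libraries with q ≤ 0.01.

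The bases that all 4 libraries shared with q ≤ 0.05 formed a single run within the clusters, of 43127 bases at chr12:53983294-54026420 (hg38). It covered 36.8% of the HOXC cluster, and 0 bases of the HOXA, HOXB and HOXD clusters were shared in this way. Among the 720 runs shared by all 4 libraries at q ≤ 0.05 in the genome, whose median length was 4891 bases, it ranked 8 by length. The run began upstream of HOXC10 and ended short of the HOXC6 start site. It also held the promoters of the antisense RNAs HOXC-AS1, HOXC-AS2 and HOXC-AS3 and of MIR196A2, the 4 of 20 non-coding RNA genes of the clusters that were marked with q ≤ 0.05 in every library. HOTAIR, the antisense RNA next to HOXC11, was covered to 100% in every library with all peaks, and at q ≤ 0.05 in All gRNA 1 and No gRNA 2 only.

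**Figure D1:**
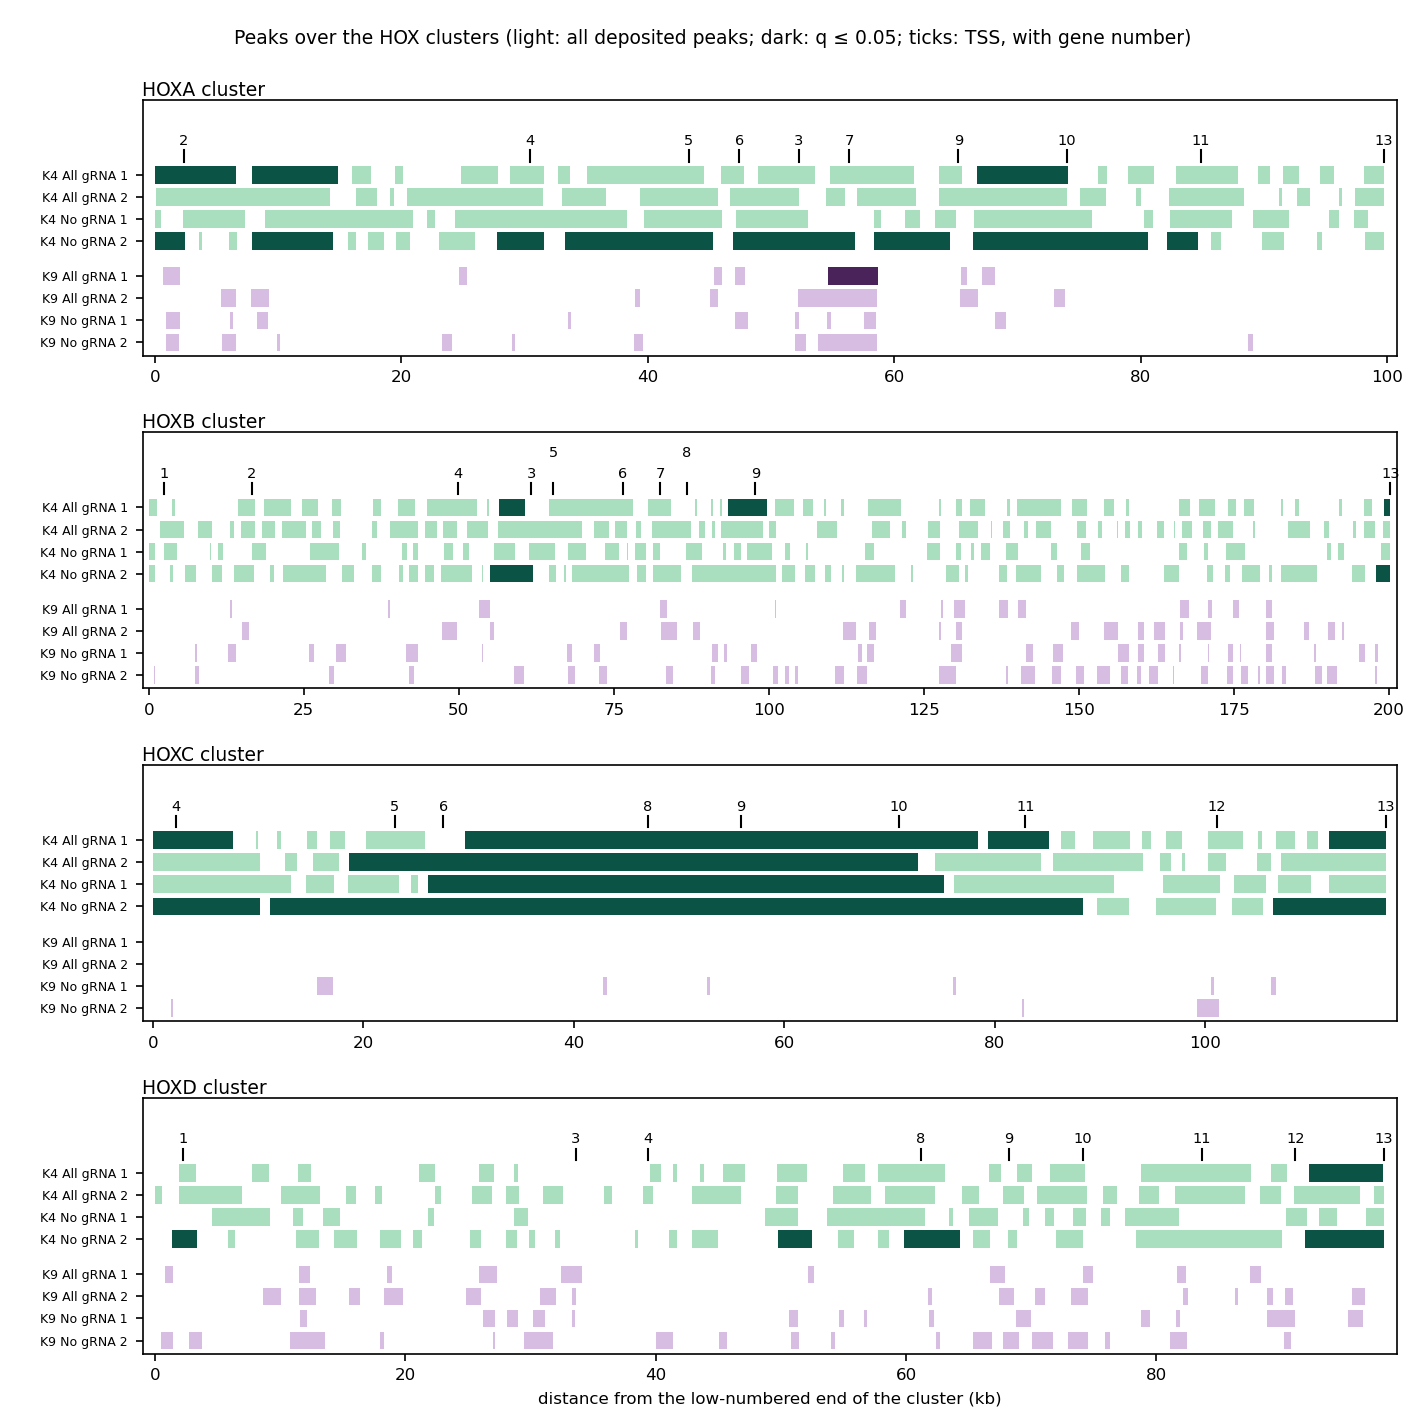
Merged peaks along the 4 clusters by distance from the low-numbered end (kb), with rows for H3K4me3 (K4) and H3K9me3 (K9) in each library, all deposited peaks in light and peaks with q ≤ 0.05 in dark colour, and ticks at the start sites with gene numbers. The dark run over HOXC8, HOXC9 and HOXC10 is present in all 4 K4 rows, between 48.8 and 77.2 kb wide.

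Around this run the HOXC genes varied more. HOXC11, which patterns the lumbar and sacral trunk, and HOXC13, known for its role in hair and nail, were covered to 100% in every library with all peaks, as was HOXC4, which acts in the neck and upper trunk. With q ≤ 0.05 each of these 3 genes was at 100% in All gRNA 1 and No gRNA 2 and at 0% in the other libraries. HOXC5 was at 100% in All gRNA 1, All gRNA 2 and No gRNA 2 and at 71.2% in No gRNA 1. HOXC6, which acts in thoracic and mammary patterning, was at 0% in All gRNA 1 and at 100% in the other 3 libraries. The wide peak of All gRNA 1 stopped before its MANE start site, and at its annotated 5′ end, 37816 bases away, all 4 libraries were at 100%. HOXC12 was the only gene of the cluster without a peak of q ≤ 0.05 in its window in any library. With all peaks it was at 94.2% and 86.8% with All gRNA and 63.7% and 46.2% with No gRNA.

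The H3K4me3 share of the whole HOXC cluster, 117.2 kb at chr12:53938831-54056030, was 76.9% and 86.2% with All gRNA and 87.6% and 93.8% with No gRNA. In the HOXA cluster, 99.74 kb at chr7:27100354-27200091, it was 67.6% and 72.1% against 68.0% and 69.2%. In the HOXB cluster, 200.2 kb at chr17:48528526-48728750, it was 45.9% and 49.8% against 29.9% and 55.0%. In the HOXD cluster, 98.19 kb at chr2:176092721-176190907, it was 41.1% and 53.0% against 33.9% and 46.7%. HOXC was the highest cluster in each library, and under the labels in doubt only the HOXC values of All gRNA all lay on one side of those of No gRNA. Peaks covered between 20.6% and 30.8% of the genome in these lists.

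HOXC exceeded HOXA by 16.9 ± 6.62 percentage points, HOXB by 41.0 ± 11.6 and HOXD by 42.4 ± 9.63 (SD, n = 4 libraries). The difference was positive in 4 of 4 libraries for each pair. Every exact two-sided sign-flip test over the 4 libraries gave p = 0.125, the smallest that 4 libraries allow. It was also 0.125 after Benjamini-Hochberg adjustment over the 6 comparisons of this kind. The comparison was added after seeing the values, in which HOXC was the highest cluster in each library. All differences then had to be positive, so this p was fixed by the choice of HOXC and adds no support. With q ≤ 0.05 the differences were 37.7, 54.7 and 51.9 points, again positive in 4 of 4 libraries. The HOXB cluster holds a long stretch without HOX genes before HOXB13, and the span from HOXB1 to HOXB9 alone reached 54.2% and 61.5% with All gRNA and 38.8% and 64.3% with No gRNA.

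The strength of the mark gave a similar order. Each promoter was ranked by the highest −log10 q of a peak in its window among all 19970 promoters of the library. The median percentile of the HOXC genes was 93.1 and 88.6 with All gRNA and 77.9 and 90.8 with No gRNA. It was between 36.7 and 54.8 for HOXA, at most 37.9 for HOXB and between 17.3 and 40.8 for HOXD, and 50 for all promoters by construction. Since 1 peak gives the value of several neighbours, the HOXC values are not independent of each other.

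**Figure D2:**
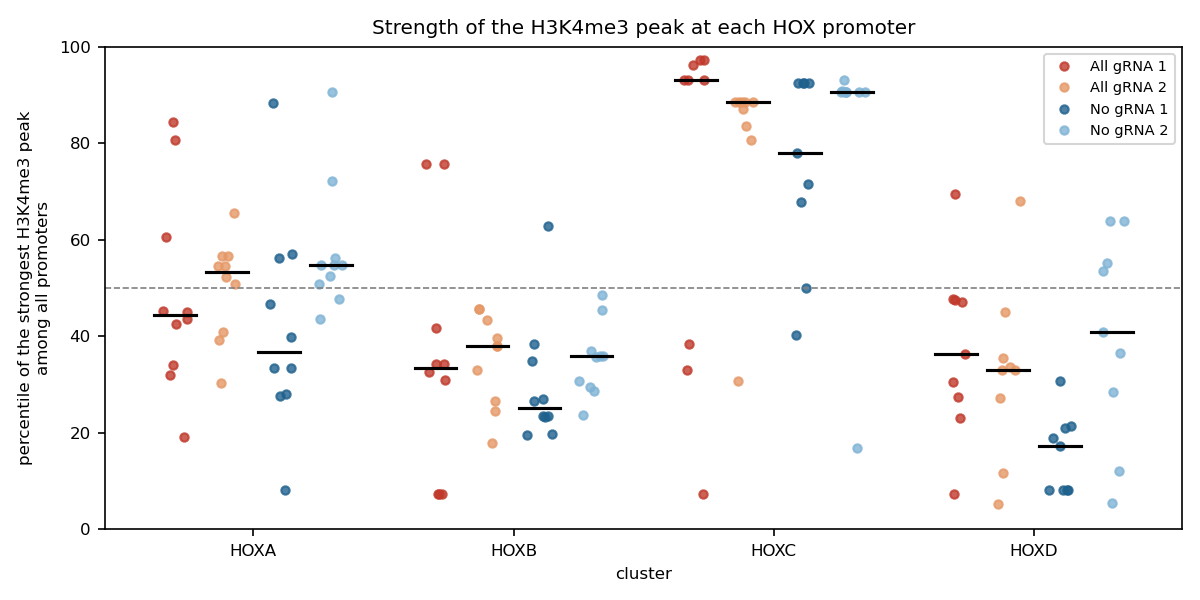
Percentile of the strongest H3K4me3 peak at each HOX promoter among all promoters of the same library (y axis), by cluster and library, with a point for each gene and a bar at the median. The HOXC medians lie between 77.9 and 93.1, above every median of the other clusters.

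The clusters were cut into 3 equal lengths to compare their ends. In HOXC the middle length, which holds the start sites of HOXC8, HOXC9 and HOXC10, was covered to 100%, 95.9%, 97.6% and 100% in All gRNA 1, All gRNA 2, No gRNA 1 and No gRNA 2. The low-numbered end of HOXC was at 65.7%, 87.7%, 87.8% and 97.5%, and the high-numbered end at 65.0%, 75.0%, 77.5% and 83.8%. In HOXD the high-numbered end was the highest, at 64.1%, 67.4%, 41.9% and 67.7%. This end holds the start sites of HOXD9 and HOXD10 and of the limb genes HOXD11, HOXD12 and HOXD13. The low-numbered end of HOXD was at 20.1%, 45.2%, 25.7% and 34.2%, below the high-numbered end in 4 of 4 libraries. Over its whole span HOXB ran the other way. Its high-numbered end, mostly the stretch before HOXB13, was the lowest in 4 of 4 libraries, at 36.9%, 34.9%, 21% and 45.6%. The span from HOXB1 to HOXB9 alone ran as HOXD did at its low-numbered end only. Its low-numbered end was the lowest in 4 of 4 libraries, at 37.1%, 50.1%, 33.8% and 51.1%. The high-numbered end of that span was at 63.5%, 58.8%, 41.9% and 83.7%. Its middle length was at 62.0%, 75.5%, 40.7% and 58.1%, so in All gRNA 2 the middle and not the high-numbered end was the highest. The 3 lengths of HOXA ranged from 59.2% to 84.7%, and no end was the highest in every library.

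By paralogue group, groups 5 and 10 had every measured member marked in all 4 libraries, with 3 genes each. Groups 1, 7 and 12, with 2 genes each, had none. By wider classes, 4 of 11 genes of groups 1 to 4, 6 of 11 of groups 5 to 8 and 8 of 16 of groups 9 to 13 were marked in all 4 libraries. The paralogues of group 9, which act from the trunk to the tail, differed by cluster. HOXB9 and HOXC9 were at 100% in every library, while HOXD9 was at 33.3% and 72.8% with All gRNA and 8.05% and 37.0% with No gRNA.

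CG counts did not run in the same order as the mark among the clusters. The median number of CG in the ± 1 kb window was 104 for HOXC, 143 for HOXA, 93.5 for HOXB and 171 for HOXD, against 96 over all promoters. HOXD, the cluster with the highest number, had the lowest count of promoters marked in all 4 libraries. The 18 marked HOX promoters had a median of 106.5 CG and the other 20 a median of 127.

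In the HOXA cluster, HOXA4 and HOXA5, the latter known as a regulator of breast and lung epithelium, were at 100% in every library. At q ≤ 0.05 both were at 100% in No gRNA 2 and at 0% in the other 3 libraries. HOXA3 was at 100% and 51.9% with All gRNA and 88% and 100% with No gRNA, and HOXA6 at 68.7% and 85.9% against 63.4% and 75.7%. HOXA7 had the widest range of this cluster, at 100% and 48.4% against 0% and 74.9%. HOXA11, a uterine and limb gene, was at 100% in 3 libraries and 48.4% in No gRNA 2. HOXA13, a limb and genital gene, was at 100% in 3 libraries and 40.2% in No gRNA 1. The long non-coding RNA genes at the ends of the cluster were HOTAIRM1 and HOTTIP. HOTAIRM1 was at 100% in every library, while HOTTIP was at 16.3% in All gRNA 1 and 100% in the other 3.

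In the HOXB cluster, HOXB9 was at 100% in every library, and HOXB13, a prostate and hindgut gene, was at 100% in 3 libraries and 58.5% in No gRNA 1. HOXB5 was at 83.0% and 100% with All gRNA and 65.5% and 55.9% with No gRNA. HOXB1, a hindbrain gene, was at 0% and 79.8% against 52.7% and 5.35%. HOXB3 was at 0% and 100% against 67.8% and 65.3%, and HOXB8 at 0% and 87.5% against 58.1% and 16.1%. For these 3 genes the libraries of All gRNA differed by more than the groups did. HOXB2, HOXB4, HOXB6 and HOXB7 ranged from 22.8% to 100%, and none of them had a peak with q ≤ 0.05 in the window.

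In the HOXD cluster, HOXD8 was at 100% in 3 libraries and 67.3% in No gRNA 1, and HOXD10 lay between 50.8% and 65.3% in all 4. HOXD11 was at 0% in No gRNA 1 and 100% in the other 3 libraries, and HOXD1 at 0% in No gRNA 1 and between 66.1% and 94.4% in the others. HOXD12 was at 15.7% and 53.8% with All gRNA and 86.0% and 13.4% with No gRNA. No HOXD promoter was marked in more than 1 library at q ≤ 0.05.

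Between the labelled groups, a promoter was called when a gap of 25 percentage points or more separated the lower library of one group from the higher library of the other. H3K4me3 was called higher with All gRNA at 3 HOX promoters, 7.89% against 1.67% of all promoters, and lower at 2, 5.26% against 1.87%. HOXA2, a hindbrain gene, was at 100% and 100% with All gRNA and 52.2% and 56.3% with No gRNA. HOXA9, known for its role in blood cells and leukaemia, was at 67.1% and 100% against 40.6% and 16.9%. HOXD4 was at 39.4% and 41.9% against 0% and 10.1%. The groups did not overlap at these 3 genes, and the exact two-sided permutation p was 0.33 for each, the smallest that 2 against 2 libraries allow.

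The genes called lower were HOXA10 and HOXD13. HOXA10, a gene of the uterus and hindlimb, was at 54.4% and 53.2% with All gRNA and 100% and 100% with No gRNA. HOXD13, a digit gene, was at 47.0% and 63.7% against 100% and 100%. The exact permutation p was again 0.33 for each. HOXA9 and HOXA10 are neighbours that were called in opposite directions, and both differences changed sign at the annotated 5′ ends. The annotated 5′ end of HOXA9, chr7:27175180, lies within 1 kb of the HOXA10 start site, chr7:27174320. The windows around these positions overlap, so the HOXA9 share at its 5′ end is partly a second reading of the HOXA10 promoter. At the annotated 5′ end the HOXA9 share was 11.4% and 49.5% with All gRNA and 100% and 100% with No gRNA, and HOXA10 was at 99.2% and 19.1% against 32.2% and 81.6%. With q ≤ 0.05, 0 HOX promoters were called in either direction, and the HOXA9 difference was then −8.47 points. The HOXA2 difference was −28.2 points with q ≤ 0.01. No HOXB or HOXC gene was called. Leaving a library out can widen a gap but not narrow it, so all 5 calls had to stay and the counts could not fall. The counts grew for HOX genes and for all promoters alike. Without All gRNA 1, 8 HOX promoters were called higher, 21.1% against 5.91% of all promoters, and 3 lower, 7.89% against 4.35%. Without All gRNA 2, 5 were called higher, 13.2% against 4.2%, and 4 lower, 10.5% against 5.84%. Without No gRNA 1, 6 were called higher, 15.8% against 3.24%, and 3 lower, 7.89% against 6.61%. These counts show how far the number of calls depends on which libraries are compared. Without No gRNA 2, 14 were called higher, 36.8% against 12.2%, and 3 lower, 7.89% against 5.27%. Without both libraries whose labels are in doubt, 7 HOX promoters passed the gap higher, 18.4% against 6.92%, and 5 lower, 13.2% against 14.6%. That last comparison sets 1 library against 1 and has no replicate check.

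In H3K4me3 no cluster differed between the labelled groups by more than its libraries differed within them. HOXC was the cluster whose labelled groups did not overlap, and its mean H3K4me3 share was 81.5% ± 6.57 with All gRNA and 90.7% ± 4.34 with No gRNA (SD, n = 2 each), with an exact permutation p of 0.33. The ranges were 76.9% to 86.2% and 87.6% to 93.8%, and the distance between the All gRNA libraries slightly exceeded that between the group means. For HOXA, HOXB and HOXD the exact permutation p was 1, 1 and 0.67, and the HOXA difference of 1.21 points came to −18.4 with q ≤ 0.05. Without No gRNA 1 the HOXB difference went from 5.40 to −7.12 points, and without All gRNA 2 that of HOXA to −1.03. The labels call the libraries biological replicates. Each p-value only places the labelled grouping among the 6 possible labellings of 4 libraries, and it cannot fall below 0.33. For H3K4me3 the labels of 2 libraries are also in doubt.

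H3K9me3 covered less than 50% of every HOX window, and no HOX promoter passed the gap between the groups. It was measured over the start site ± 10 kb, and these windows overlapped that of another HOX gene for 34 of the 38 genes. No HOX promoter reached 50% in any library, against 9.59% of all promoters. No peak with q ≤ 0.05 touched 34 of the 38 windows in any library, 89.5% against 85.9% of all promoters. H3K9me3 was called higher with All gRNA at 0 HOX promoters, against 0.185% of all promoters, and lower at 0, against 0.0401%. With no minimum gap, the groups did not overlap at 3 HOX promoters with All gRNA higher (HOXA9, HOXA10 and HOXC13), 7.89% against 10.7% of all promoters. They did not overlap with All gRNA lower at 7 (HOXB5, HOXB9, HOXC11, HOXC12, HOXD8, HOXD11 and HOXD13), 18.4% against 24.3%. Both shares were below those of all promoters. The median share over the HOX genes was 5.70% and 11.4% with All gRNA and 7.58% and 13.7% with No gRNA, against 3.41% and 4.55%, and 6.50% and 7.41%, over all promoters. The HOX median was thus above that of all promoters in each library. The highest value was 38.9%, at HOXD10 in No gRNA 2.

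The exceptions lay in the middle of HOXA. The windows of HOXA3, HOXA6, HOXA7 and HOXA9 shared a single peak with q ≤ 0.05 in All gRNA 1, at chr7:27154980-27159036, with a q of 0.0324 and a fold of 2.03. HOXA7 lay under it. Weaker peaks overlapped the same place in the other libraries, with q of 0.327, 0.244 and 0.147 in All gRNA 2, No gRNA 1 and No gRNA 2. All 4 libraries shared 980 bases there, at chr7:27157876-27158855. The H3K9me3 share of the HOXA7 window was 26.5% and 36.9% with All gRNA and 13.4% and 28.4% with No gRNA, so the groups overlapped, as they did for HOXA3 and HOXA6. The HOXA9 window was at 25.2% and 28.2% against 9.56% and 17.2%, so its groups did not overlap, with an exact permutation p of 0.33.

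The HOXC cluster held the least H3K9me3. Its share was 0% in both All gRNA libraries and at most 2.82% with No gRNA, against 23.9% to 25.4% of the genome. HOXA was at 9.08% and 12.5% against 6.18% and 10.2%, HOXB at 6.94% and 13% against 12.3% and 18.2%, and HOXD at 9.25% and 14.8% against 11.1% and 19.6%. HOXC lay below HOXA by 8.26 ± 3.78 points, below HOXB by 11.4 ± 3.99 and below HOXD by 12.4 ± 4.39 (SD, n = 4 libraries), in 4 of 4 libraries each. Each exact sign-flip p was 0.125, the smallest possible, and these comparisons were also added after seeing the values. HOXC was the lowest cluster in each library, so all differences had to be negative. This p was therefore fixed by the choice of HOXC and adds no support. These H3K9me3 peaks were weak, and with q ≤ 0.05 only the HOXA peak of All gRNA 1 remained, 4.07% of that cluster. Over all libraries H3K9me3 touched 20.4% of the bases of HOXA, 36.4% of HOXB, 4.77% of HOXC and 37.8% of HOXD. Of those bases 98.3%, 85.3%, 96.2% and 81.2% also lay under H3K4me3 in some library, which covered 96.7%, 84.8%, 99.5% and 78.9% of the whole clusters.

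Genes that work with HOX proteins or on HOX chromatin were read in the same way. Of 9 TALE cofactor genes, which encode the PBX, MEIS and PKNOX partners of HOX proteins, 5 were marked with H3K4me3 in all 4 libraries. Of 15 Polycomb genes 13 were marked and of 8 trithorax genes all 8, and no gene of these 3 lists was marked in all 4 libraries at q ≤ 0.05. Over all promoters, 57.8% were marked in all 4 libraries and 3.15% at q ≤ 0.05. RING1, a Polycomb gene, was called lower with All gRNA, at 26.3% and 5.40% against 63.4% and 71.3%. Of 8 ParaHox and EVX genes, the relatives of the HOX genes, only GSX2 was marked in all 4 libraries. CDX1, a gut gene of this list, was called lower, at 0% and 0% with All gRNA against 41.2% and 73.0%. Over all promoters 1.87% were called lower with All gRNA. Of 9 genes next to the clusters 7 were marked in all 4 libraries, and MTX2, beside HOXD, was at 100% in each at q ≤ 0.05.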

How the data were processed

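Native ChIP-seq peak lists of 8 SUM159 libraries were analysed. Per the study's methods, the authors trimmed reads with fastp, aligned them to hg38 with bowtie2, removed duplicates and an exclusion list, and called broad peaks with MACS2 per library. The submitters' processing notes name other tools (bcl2fastq 2.17, Trimmomatic 0.33, Bowtie 1.1.2, MACS2 2.1.0). Each deposited peak carries a score, a fold enrichment ratio and both p and q on a −log10 scale. The lowest −log10 p was about 1.0, so weak regions had been kept, and lists hold no counts.

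Peaks were merged within a library, and covered shares were computed with Python 3.11.15 and numpy 2.4.6 for start sites of GENCODE release 44 (MANE Select, else Ensembl canonical) and for the cluster spans. All deposited peaks were the main setting. Groups were compared with exact permutation tests. Every HOX gene is accounted for, and values per library are given for those marked throughout, called, or most variable. Scripts were tested on simulated data. The HOX genes and lists were chosen with earlier results of these data known, and the comparison of HOXC with other clusters was added after seeing the values. Promoters of other HOX genes are not printed, and one HOX gene was not analysed here. Alternatives are given at the end.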

Additional observations from a re-analysis of the deposited data

How the results depend on the processing

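The H3K4me3 calls depended on the settings. HOX promoters called higher with All gRNA were 3 in the main setting, 0 with q ≤ 0.05, 0 with q ≤ 0.01, 0 with a gap of 50 points, 1 in a ± 2 kb window, and 5 to 14 with one library left out (8 without All gRNA 1, 5 without All gRNA 2, 6 without No gRNA 1, 14 without No gRNA 2). Those called lower were 2, then 0, 0 and 0 with q ≤ 0.05, q ≤ 0.01 and a gap of 50 points, 1 with equal covered length, 1 in the ± 500 base and 1 in the ± 2 kb window, and 3 to 4 with one library left out (4 without All gRNA 2). Without both libraries whose file names give the other condition, chosen after seeing the data, they were 7 and 5. HOX promoters marked in all 4 libraries were 18, but 3 with q ≤ 0.05, 0 with q ≤ 0.01, 29 with any overlap, 9 with 100% of the window, and 9 in the remaining pair with q ≤ 0.05.

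Differences between groups turned for some genes. HOXA2 came to −28.2 points with q ≤ 0.01, HOXA9 to −8.47 with q ≤ 0.05 and −69.6 at the gene's 5′ end, HOXA10 to 2.27 at the gene's 5′ end and HOXD13 to 5.37 with equal covered length. The HOXA9 window at the gene's 5′ end overlaps the window of the HOXA10 start site. For clusters, the H3K4me3 difference of HOXA came to −18.4, −8.14 and −1.65 with q ≤ 0.05, q ≤ 0.01 and limits widened by 10 kb, to −1.03 without All gRNA 2, and to −1.61 in the remaining pair. Leaving out one library gave HOXA −1.03 to 3.45, HOXB −7.12 to 17.9 and, for H3K9me3 of HOXD, −7.57 to 0.939. In the remaining pair HOXB came to −9.05 and HOXD to −5.61. HOXD came to −4.89 with q ≤ 0.05 and −3.23 with q ≤ 0.01, and HOXB to 0 with q ≤ 0.01. The H3K9me3 differences of HOXB, HOXC and HOXD, and of HOXC against HOXB and HOXD, were 0 with both q thresholds, and those of HOXA and of HOXC against HOXA were 0 with q ≤ 0.01. The cause was not tested.

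HOXC kept the higher H3K4me3 share than HOXA, HOXB and HOXD, and no H3K9me3 HOX promoter was called, under each alternative run. The replicate numbers did not pair the libraries (r of the differences 0.0264 for H3K4me3 and 0.0353 for H3K9me3). With a replicate block, 5 HOX promoters were called higher and 2 lower. The mean cluster differences are the same by construction with or without the block, so they were not tested by it. The unknown depth limits all shares, since lists with fewer strong peaks mark fewer promoters at a fixed q.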
